A study of Mus musculus with 36 samples.

Results

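The genes described here report the integrated stress response and the unfolded protein response. They are Atf4, Atf3, Ddit3, Trib3, Asns, Chac1, Sesn2, Hspa5, Xbp1 and Herpud1, taken by symbol from a table of RNAseq counts of 55487 mouse genes. The 10 symbols matched 11 rows, because Ddit3 is annotated by a second, overlapping entry of 105 exon bases that held at most 1 count in any library. The other 10 rows were among the 20355 genes tested (mean count above 5), and no member was lost to that filter except the second Ddit3 entry.

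The libraries were made from primary cortical cells of embryonic day 18 C57 mice (C57EDCX), a commercial preparation of dissociated cortex. The 12 Control cultures received fresh medium, the 12 DEX cultures received 1 µM dexamethasone, a synthetic agonist of the glucocorticoid receptor, and the 12 DEX + RU-486 cultures received 1 µM of each agent for the same 72 h. RU-486 (mifepristone) blocks the glucocorticoid and progesterone receptors. Each treatment had 6 libraries in each of 2 batches, and no group received RU-486 alone. Whether cultures of 1 group came from separate embryos or litters was not stated in the labels, so p-values measure the spread between these libraries.

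In the integrated stress response, kinases that sense amino acid shortage, misfolded protein in the endoplasmic reticulum (ER), heme shortage or double-stranded RNA phosphorylate the translation factor eIF2α. General translation then falls while the mRNA of the transcription factor ATF4 is translated more, and ATF4 with its partners switches on genes of amino acid supply, feedback control and, with CHOP (encoded by Ddit3), cell death. The unfolded protein response shares the kinase PERK with this pathway and adds the IRE1-XBP1 and ATF6 branches, which raise ER chaperones such as BiP (encoded by Hspa5). The counts used here are per gene, so they hold neither the translation of Atf4 nor the spliced form of Xbp1.

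The promoters of the 10 genes, from 250 bases before to 50 bases after each RefSeq start (GRCm38.p6), were searched on both strands for the letters of known elements. The ATF4 composite element TGATGNAA stood in the promoters of Atf3, Trib3, Asns, Chac1 and Herpud1, 5 of the 10 genes, and in 3.97% of 32851 mouse promoters. The stretches upstream of Chac1, Atf3 and Herpud1 are shown because each holds that element outside annotated exons, and those 3 genes carry results given further on. Sequences run 5′ to 3′ on the strand of the gene, with the matched elements in capitals.

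Chac1, chr2:119350992-119351228, plus strand: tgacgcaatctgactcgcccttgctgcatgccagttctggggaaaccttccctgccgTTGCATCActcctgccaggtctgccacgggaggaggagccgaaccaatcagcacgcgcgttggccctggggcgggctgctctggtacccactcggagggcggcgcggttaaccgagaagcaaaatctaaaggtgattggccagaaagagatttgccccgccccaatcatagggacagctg
Atf3, chr1:191183341-191183583, minus strand: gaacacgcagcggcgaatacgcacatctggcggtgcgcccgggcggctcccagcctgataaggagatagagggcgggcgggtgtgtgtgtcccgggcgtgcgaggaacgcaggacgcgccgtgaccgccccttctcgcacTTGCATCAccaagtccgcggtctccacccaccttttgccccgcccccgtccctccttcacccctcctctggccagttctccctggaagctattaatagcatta
Herpud1, chr8:94386179-94386428, plus strand: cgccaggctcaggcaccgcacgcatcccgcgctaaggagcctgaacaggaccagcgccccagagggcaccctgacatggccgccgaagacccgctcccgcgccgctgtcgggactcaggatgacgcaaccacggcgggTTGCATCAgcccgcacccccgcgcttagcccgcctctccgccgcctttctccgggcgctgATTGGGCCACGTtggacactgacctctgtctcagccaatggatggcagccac

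In all 3 stretches the match was TTGCATCA, the element read on the opposite strand, whose first base lay at position -193 from the RefSeq start of Chac1, -110 from that of Atf3 and -112 from that of Herpud1. The stretch of Atf3 lies inside an intron of a longer annotated transcript. The second run of capitals in Herpud1, the gene of an ER membrane protein used in the degradation of misfolded proteins, is an ER stress element II that shares 5 bases with an XBP1 core (ACGTGG) on the opposite strand. The ER stress element II was present in 0.0365% and the XBP1 core in 8.31% of promoters, and Herpud1 was the only member with either. Among the 10 genes, Hspa5 alone held the longer ER stress element (CCAAT, 9 bases of any kind, CCACG), as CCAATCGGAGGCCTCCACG at chr2:34772025-34772043, and 0.119% of promoters held it. Neither a full cAMP response element (TGACGTCA, 1.79% of promoters) nor a glucocorticoid element (ACANNNTGT, 6.85%) was found in the windows of the 10 genes, which says only that these letters are not in these windows.

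Sequencing depth was 12.1 to 82.4 M counts per library. In batch 1 the RNA integrity number (RIN) was 7.8 to 9.2 in Control, 3.9 to 7.8 in DEX and 5.6 to 7.9 in DEX + RU-486 libraries, and Control libraries had 24.2 to 82.4 M counts against 12.1 to 22.3 M counts for DEX, so that treatment, RIN and depth cannot be told apart there. In batch 2 each group had 2 libraries with a RIN under 3 and 4 of 7.4 or above, and depths overlapped over all 6 libraries. Among the 4 of 7.4 or above, Control had 27.8 to 47.3 M counts and DEX + RU-486 22.8 to 26.96 M counts, without overlap. DEX, with 21.3 to 29.3 M counts, overlapped both. Control library 1 of batch 1 stood apart from the other 5 controls of its batch in most of the genes described here, so results of batch 1 are given with and without it. It was singled out for its high levels of these same genes, so leaving it out lowers their Control level by that choice, and values without it are a description from which nothing is read against the shares of all genes.

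That library, with a RIN of 7.8 and 32.1 M counts, had a higher level in CPM (counts per M counts of the library, where M is the mega prefix, after scaling by the trimmed mean of log ratios) than all the other 5 controls for 9 of the 10 genes, against 22.4% of all tested genes. Its Sesn2 level was 67.2 CPM, where the other 5 controls had 10.2 to 20.1 CPM. Trib3 stood at 8.14 CPM against 1.70 to 3.21 CPM, and Chac1 at 35.8 CPM against 5.85 to 12.8 CPM. Control library 1 also lay above all 12 treated libraries of batch 1 for Atf4, Asns and Chac1. Hspa5, at 125 CPM against 126 to 145 CPM, was the exception. The log2 ratio to the median of the other controls (CPM + 0.5) was 1 or more for 8 of the 10 genes and for 1.25% of all tested genes. The library was singled out by these genes, so these counts restate that choice and nothing is read from them against the shares of all genes.

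**Figure D1:**
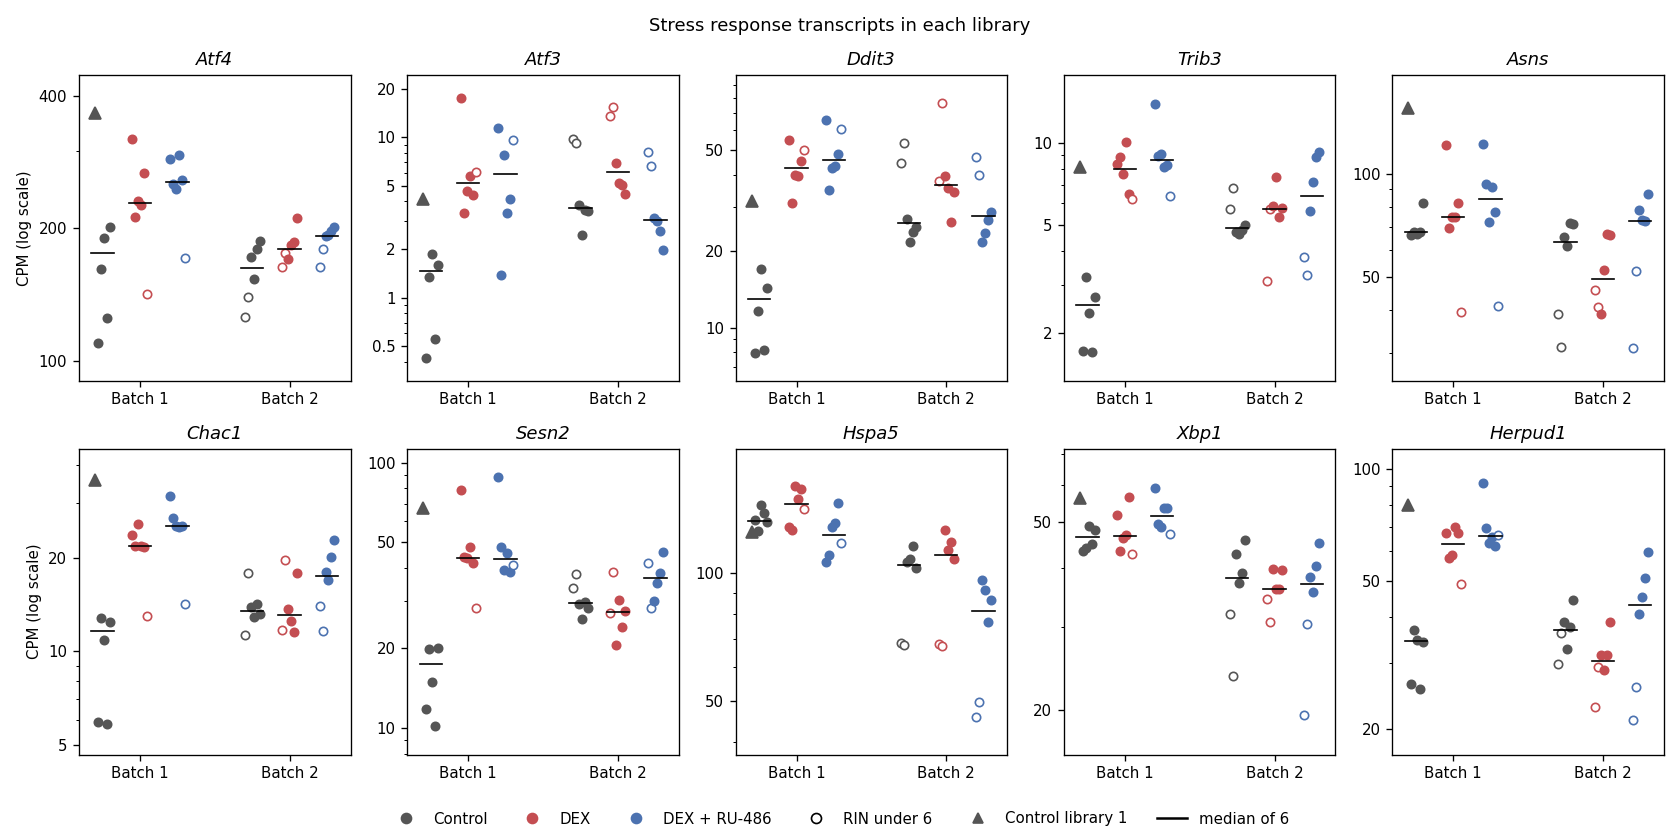
CPM (log axis) of the 10 genes in each of the 36 libraries, by batch and treatment, with the median of each 6 as a bar, libraries with a RIN under 6 as open circles and Control library 1 as a triangle. Control library 1 stands above the other batch 1 controls in 9 of the 10 genes, and in batch 2 the open circles lie lowest for Hspa5 and Xbp1 and, for Atf3, above the others of their treatment.

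Levels were compared between genes per length, as CPM per kilobase of annotated exon (RPKM), in the 4 batch 2 Control libraries with a RIN of 7.4 or above. Atf4 was highest at 73.3 ± 6.12 RPKM (SD, n = 4), followed by Hspa5 at 25.6 ± 1.30 and Asns, the gene of asparagine synthetase, at 24.6 ± 1.77 RPKM. Herpud1, Ddit3 and Xbp1 had 16.4 ± 2.04, 14.2 ± 1.23 and 12.7 ± 1.203 RPKM, and Chac1 and Sesn2 had 8.28 ± 0.37 and 8.14 ± 0.51 RPKM. Trib3 (2.24 ± 0.07 RPKM) and Atf3 (1.53 ± 0.27 RPKM) were lowest. Of the neighbours in this order, Hspa5 and Asns, Herpud1 and Ddit3, Ddit3 and Xbp1, and Chac1 and Sesn2 overlapped in range, and the others did not. Atf3, with 17 to 234 counts per library, was the least precisely measured of the 10 genes.

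The question put to DEX against Control was whether a sustained glucocorticoid signal moves these genes, and both batches were first fitted together with the batch as a covariate. None of the 10 genes passed an adjusted p of 0.05 in edgeR's quasi-likelihood test, where 5 of 20355 genes did (0.0246%), while 3 of the 10, all with positive fold changes, were under an unadjusted p of 0.05, as were 16.9% of all genes. Ddit3 came nearest, with a log2 fold change of 0.87 ± 0.25 (SE) and an adjusted p of 0.085. Atf3 had 1.26 ± 0.41 with an adjusted p of 0.114, and Trib3, the gene of a pseudokinase that ATF4 and CHOP induce and that restrains them, had 0.64 ± 0.23 with an adjusted p of 0.159. DESeq2 called 2 of the 10 (Atf3 and Ddit3), both higher, beside 3.01% of the genes to which it gave an adjusted p. Restricted to the 28 libraries with a RIN of 6 or above, the edgeR test called 3: Atf3 at 1.45 ± 0.39, Ddit3 at 1.02 ± 0.22 and Trib3 at 0.91 ± 0.22, beside 19.7% of all tested genes called in the same fit. With all libraries and RIN as a covariate 1 of the 10 was called, beside 2.24% of all genes. Without Control library 20 the test called 3 of the 10, beside 7.94% of all genes, and without Control library 19 it called 2, beside 1.59%.

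For DEX + RU-486 against Control over both batches, edgeR called none of the 10 genes and 0% of all tested genes, with 6 of the 10 under an unadjusted p of 0.05 and positive (10.8% of all genes were under it), and DESeq2 called 1 (Trib3), beside 1.04% of the genes to which it gave an adjusted p. In the libraries with a RIN of 6 or above, 5 of the 10 were called, all higher, beside 8.86% of all genes. These were Trib3 (log2 fold change 1.18 ± 0.22), Ddit3 (0.96 ± 0.22), Sesn2 (0.80 ± 0.26), Chac1 (0.77 ± 0.21) and Herpud1 (0.63 ± 0.16). With all other libraries kept and Control library 20 left out, 2 of the 10 were called, beside 2.06% of all genes. For DEX + RU-486 against DEX over both batches, none of the 10 genes was called by edgeR (0% of all genes) or by DESeq2, and Hspa5, with a negative fold change, was the 1 gene of the 10 under an unadjusted p of 0.05 (2.68% of all genes). With a RIN of 6 or above and without Control library 1, 7 of the 10 were called for DEX (16.6% of all genes) and 6 for DEX + RU-486 (6.7%) against Control. The comparisons of both treatments with Control share the Control libraries, and their calls are not independent of each other.

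In batch 1, DEX against Control, Ddit3 rose 2.95-fold, Atf3 4.36-fold, Trib3 2.47-fold and Herpud1 1.59-fold. They made 4 of the 10 genes called, all of them higher, where 19% of all genes were called in either direction and 8.99% were called higher. Hspa5, Xbp1 and Asns had fold changes near 1 and were not called.

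Ddit3 encodes CHOP, a transcription factor that drives cell death genes under prolonged ER stress. Its lowest, median and highest levels in batch 1 were 7.97, 12.9 and 31.4 CPM in Control and 31.04, 42.6 and 54.7 CPM in DEX. The groups overlapped only through Control library 1. The log2 fold change was 1.56 ± 0.26 (edgeR, adjusted p = 0.000816), and 1.89 ± 0.21 without that library. The annotated exons of Ddit3 share 68 bases with exons of Mars, a tRNA synthetase gene on the opposite strand, and whether strand was used in counting was not stated, so reads in those bases cannot be assigned.

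Atf3, an immediate early gene of the same family as Atf4, had 0.42, 1.47 and 4.11 CPM (lowest, median, highest) in Control and 3.38, 5.20 and 17.7 CPM in DEX. DEX library 7, with 17.7 CPM, lay far above the other DEX libraries, and the groups again overlapped only through Control library 1. The log2 fold change was 2.12 ± 0.54 (edgeR, adjusted p = 0.00883).

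Trib3 had 1.70, 2.53 and 8.14 CPM in Control and 6.19, 8.05 and 10.1 CPM in DEX, with a log2 fold change of 1.30 ± 0.31 (edgeR, adjusted p = 0.00591). Herpud1 had 25.6, 34.5 and 80.0 CPM in Control and 48.9, 63.0 and 69.8 CPM in DEX, with 0.67 ± 0.21 (edgeR, adjusted p = 0.026), and its call was lost in 7 of 18 fits with 1 library left out. Control library 1 lay within the DEX range of Trib3 and above that of Herpud1, and every other control lay below every DEX library in both genes.

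Of the 6 genes not called by edgeR in this comparison, Sesn2, which encodes a leucine sensor that holds back mTORC1, was at the threshold. It had 10.2, 17.4 and 67.2 CPM in Control and 28.3, 43.8 and 78.6 CPM in DEX, and a log2 fold change of 1.02 ± 0.36 (edgeR, adjusted p = 0.0508). DESeq2 called Sesn2 here, at 1.05 ± 0.41 (DESeq2, adjusted p = 0.048). Chac1, the gene of an enzyme that breaks down glutathione, had 5.85, 11.7 and 35.8 CPM in Control and 12.96, 21.8 and 25.8 CPM in DEX, with a log2 fold change of 0.65 ± 0.32 (edgeR, adjusted p = 0.166). For both, Control library 1 lay inside or above the DEX range and no other control did. The log2 fold changes of Atf4 (0.31 ± 0.23), Hspa5 (0.15 ± 0.10), Xbp1 (0.05 ± 0.10) and Asns (-0.10 ± 0.25) were not called (edgeR, adjusted p from 0.302 to 0.826).

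Without Control library 1, 7 of the 10 genes were called, all higher, where 16.5% of all genes were called in either direction and 6.82% higher. Atf4, Chac1 and Sesn2 joined the 4 above, with log2 fold changes of 0.57 ± 0.19, 1.17 ± 0.23 and 1.64 ± 0.25 (edgeR, adjusted p = 0.0374, 0.00208 and 0.000569). With all libraries none of the 10 genes separated DEX from Control without overlap, while 9.86% of all genes did. Without that library 6 of the 10 did so, all higher in DEX (12.3% of all genes), a gain that the choice of the library by its levels of these genes favours. In the libraries with a RIN of 6 or above 5 of the 10 were called, Sesn2 being added, beside 19% of all genes, and without Control library 1 as well 7 were, beside 17.7%.

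In DEX + RU-486 against Control in batch 1, 5 of the 10 were called, all higher: the same 4 genes and Sesn2, where 15.4% of all genes were called in either direction and 6.92% higher. Ddit3 had 34.9, 45.7 and 65.6 CPM in DEX + RU-486, above all 6 controls, and it was the 1 gene of the 10 whose groups did not overlap (7.15% of all genes). Its log2 fold change was 1.73 ± 0.26 (edgeR, adjusted p = 0.000832).

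Trib3 had 6.39, 8.64 and 13.97 CPM in these cultures and Atf3 1.38, 5.95 and 11.5 CPM, with log2 fold changes of 1.50 ± 0.31 and 1.959 ± 0.53 (edgeR, adjusted p = 0.00397 and 0.0172). Herpud1 had 62.2, 66.1 and 91.8 CPM and a log2 fold change of 0.84 ± 0.21 (edgeR, adjusted p = 0.0106), and Sesn2 38.6, 43.3 and 88.2 CPM and 1.08 ± 0.36 (edgeR, adjusted p = 0.0441), a call lost in 15 of 18 fits with 1 library left out. The fold of Sesn2 was 2.12 with all libraries and 3.29 without Control library 1. Library 13 was highest of the 6 in Atf3, Ddit3, Trib3, Herpud1 and Sesn2. The log2 fold change of Chac1 was 0.85 ± 0.32 (edgeR, adjusted p = 0.0733), that of Atf4 0.40 ± 0.23, and those of Xbp1 (0.15 ± 0.10), Hspa5 (-0.09 ± 0.10) and Asns (-0.003 ± 0.25) were near 0.

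Without Control library 1, 7 of the 10 were again called in this comparison, the 5 with Atf4 and Chac1, where 13.1% of all genes were called in either direction and 5.23% higher. Then 5 of the 10 did not overlap between the groups (9.66% of all genes), all higher in DEX + RU-486. In the libraries with a RIN of 6 or above 6 of the 10 were called, Chac1 being added to the 5, beside 13.5% of all genes. Between DEX + RU-486 and DEX directly, edgeR called none of the 10 genes in batch 1 and 0% of all genes, with 1 of the 10 under an unadjusted p of 0.05 (Hspa5, log2 fold change -0.23 ± 0.10), and DESeq2 called none of the 10.

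**Figure D2:**
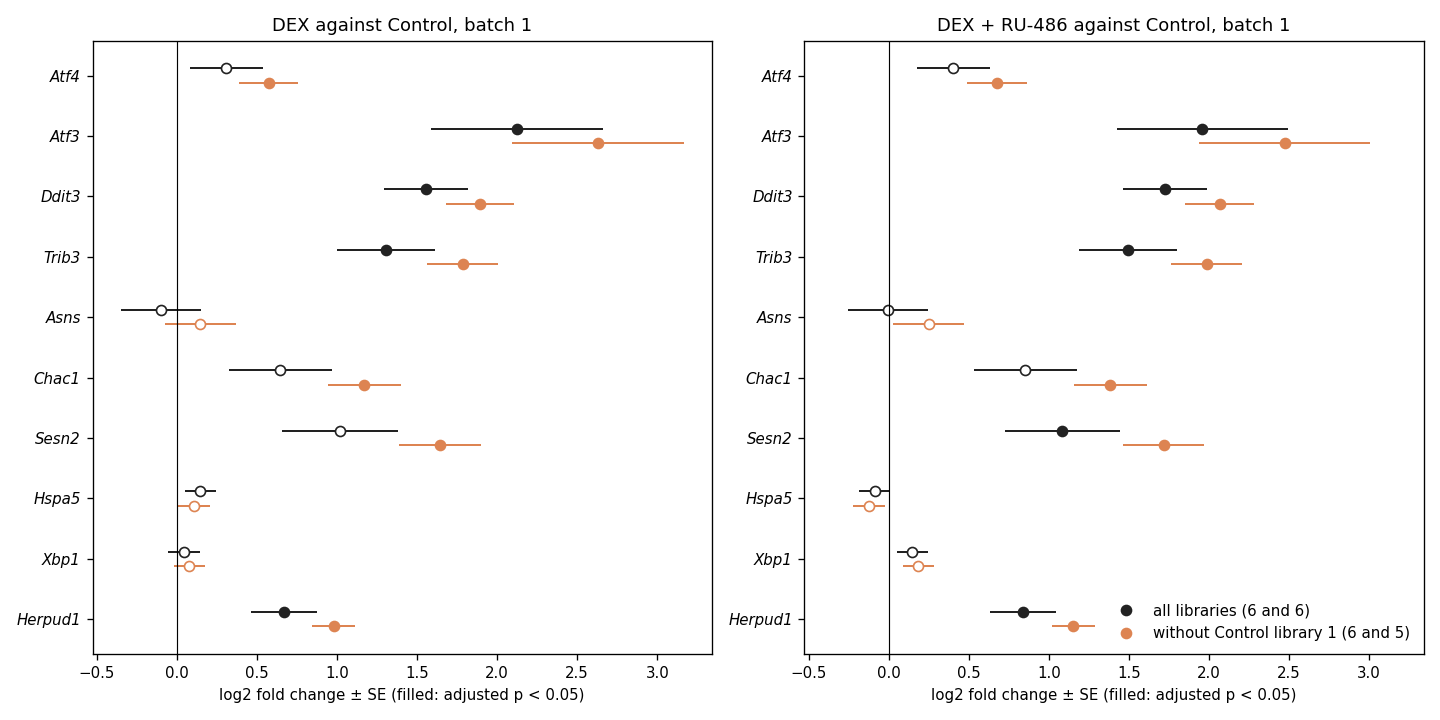
Log2 fold change ± SE of the 10 genes in batch 1 against Control, for DEX (left) and DEX + RU-486 (right), with all 6 Control libraries (black) and without Control library 1 (orange), filled where the adjusted p was under 0.05. The values of Atf3, Ddit3, Trib3 and Herpud1 are filled in all 4 series, Hspa5, Xbp1 and Asns in none, and 7 genes are filled in each orange series.

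Marker genes of the cell types in the cultures moved in the same libraries. In DEX against Control in batch 1, 5 of 8 neuron markers were called lower and 6 of 7 oligodendrocyte lineage markers higher, where 19% of all genes were called in either direction and 8.99% higher. Their summed levels were 1830 to 2797 CPM in DEX against 2458 to 3219 CPM in Control and 466 to 2120 CPM against 61.1 to 277 CPM. Of the markers of astrocytes 3 of 7 and of dividing progenitors 4 of 6 were called higher. Astrocyte sums were 29.2 to 61.0 CPM in DEX and 28.4 to 43.5 CPM in Control. Sums of dividing progenitors were 29.9 to 169 CPM and 6.79 to 30.4 CPM. The upper limits of 2120 and 169 CPM came from DEX library 12, with a RIN of 3.9, and without it they were 749.5 and 47.2 CPM. Microglia markers summed to at most 0.59 CPM in Control and 1.29 CPM in DEX, and of 6 listed markers P2ry12, C1qa and Tmem119 did not pass the count filter. Those of vascular cells and fibroblasts summed to at most 3.63 and 5.56 CPM, and Dcn and Lum did not pass. In DEX + RU-486 against Control in batch 1, 4 of 8 neuron markers were called lower, and 4 of 7 oligodendrocyte lineage, 2 of 7 astrocyte and 5 of 6 progenitor markers higher, where 15.4% of all genes were called in either direction and 6.92% higher. In DEX + RU-486 the sums were 2058 to 2820 CPM for neurons, 215 to 914 CPM for the oligodendrocyte lineage, 29.6 to 53.5 CPM for astrocytes and 19.4 to 147 CPM for dividing progenitors. Without library 18, with a RIN of 5.6, the upper limits of the oligodendrocyte lineage and the progenitors were 627 and 71.6 CPM. Microglia markers summed to at most 2.46 CPM there, with none called, and those of vascular cells and fibroblasts to at most 6.70 CPM, with Cldn5 called higher. The part of the cell mixture in the changes of the 10 genes was not tested, and in such bulk cultures fewer cells of a type and less RNA per cell cannot be told apart.

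In batch 2 with all 18 libraries, edgeR called none of the 10 genes in DEX against Control, none in DEX + RU-486 against Control and none in DEX + RU-486 against DEX, where 0%, 0% and 0% of all genes were called. At an unadjusted p of 0.05 the 3 comparisons had 0, 0 and 2 of the 10 (2.19%, 0.894% and 2.18% of all genes), and DESeq2 called none. The libraries with a RIN under 3 stood apart in several genes. Over the 3 groups, Hspa5 had 45.6 to 68.3 CPM in those 6 libraries and 76.8 to 126 CPM in the 12 others, and Xbp1 had 19.5 to 34.3 CPM against 35.5 to 45.9 CPM, with no overlap in either gene. Atf3 went the other way, with a median of 9.48 CPM against 3.48 CPM, and Ddit3 likewise with 45.7 against 26.2 CPM. Asns had 39.9 against 68.9 CPM. For Atf3, Hspa5 and Xbp1 both low-RIN libraries lay outside the range of the 4 others within each treatment, while for Ddit3 and Asns that did not hold in DEX. Neuron markers summed to up to 9067 CPM in libraries with a RIN under 3 and to at most 2320 CPM in the others.

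In the 4 libraries per group with a RIN of 7.4 or above, Atf3 and Trib3 did not overlap between DEX and Control, both higher in DEX (11.5% of all genes did not overlap), and none of the 10 genes was called (edgeR; 0.565% of all genes were). Atf3 had 3.78, 2.46, 3.50 and 3.46 CPM in Control and 6.91, 5.20, 5.04 and 4.40 CPM in DEX, a log2 fold change of 0.72 ± 0.21 (edgeR, adjusted p = 0.109). Trib3 had 4.68, 4.63, 4.79 and 4.97 CPM against 5.88, 7.47, 5.35 and 5.75 CPM, with 0.37 ± 0.17 (edgeR, adjusted p = 0.289). All 4 DEX libraries were above all 4 controls in both genes. Ddit3 had 26.8, 21.8, 23.8 and 24.9 CPM in Control and 39.6, 35.3, 25.98 and 34.3 CPM in DEX, where 1 DEX library fell within the Control range. Its log2 fold change was 0.49 ± 0.12 (edgeR, adjusted p = 0.0682), with Herpud1 at -0.22 ± 0.12, Sesn2 at -0.13 ± 0.13 and Chac1 at 0.05 ± 0.14.

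DEX + RU-486 against DEX in the same libraries gave calls in both directions. RIN was 7.6 to 8.7 in DEX + RU-486 and 7.4 to 7.7 in DEX. Within DEX + RU-486, libraries 35 and 36, with a RIN of 8.7 and 8.5, had the lowest Atf3 and Hspa5 and the highest Herpud1 and Sesn2. The part of RIN in these values was not tested. Atf3 and Hspa5 fell and Herpud1 and Sesn2 rose, 4 of the 10 genes, beside 1.56% of all genes. In Atf3 the DEX + RU-486 cultures had 3.15, 2.99, 2.60 and 2.00 CPM, all below the 4 DEX values, a log2 fold change of -1.01 ± 0.22 (edgeR, adjusted p = 0.0401). Hspa5 had 96.3, 91.4, 76.8 and 86.5 CPM against 126, 113, 118 and 108 CPM in DEX, again without overlap, and a log2 fold change of -0.41 ± 0.08 (edgeR, adjusted p = 0.0298). In these batch 2 libraries the level of BiP mRNA after DEX + RU-486 was thus 0.752 times that after DEX. In batch 1 it was 0.850 times that after DEX and was not called.

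Herpud1 had 40.8, 45.2, 51.0 and 59.8 CPM in DEX + RU-486 against 31.6, 28.8, 31.5 and 38.6 CPM in DEX, a log2 fold change of 0.59 ± 0.12 (edgeR, adjusted p = 0.0372). Sesn2 had 30.2, 35.1, 38.3 and 46.1 CPM against 20.5, 30.4, 23.9 and 27.7 CPM, with 0.55 ± 0.13 (edgeR, adjusted p = 0.047). The groups did not overlap in Herpud1 and overlapped in Sesn2 by 1 library of each. Asns, at 78.4, 73.1, 72.7 and 87.1 CPM against 39.0, 52.5, 66.7 and 66.3 CPM, also did not overlap and was not called (0.47 ± 0.13, edgeR, adjusted p = 0.0704). In all, 4 of the 10 genes did not overlap, beside 8.4% of all genes. With all 6 libraries a group, the log2 fold changes kept their signs at -1.02 ± 0.44 for Atf3, -0.44 ± 0.22 for Hspa5, 0.41 ± 0.21 for Herpud1 and 0.37 ± 0.16 for Sesn2, and none was called.

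Against Control, these DEX + RU-486 libraries did not overlap in 6 of the 10 genes (6.91% of all genes), yet none of the 10 was called (edgeR; 0.00491% of all genes). Atf4, Trib3, Asns, Chac1 and Sesn2 were higher in all 4 libraries and Hspa5 was lower. The 4 DEX + RU-486 libraries had 22.8 to 26.96 M counts and the 4 controls 27.8 to 47.3 M counts. Treatment and depth therefore cannot be told apart in this comparison, and the part of depth was not tested. Trib3 had 5.63, 7.16, 8.90 and 9.26 CPM, a log2 fold change of 0.71 ± 0.17 (edgeR, adjusted p = 0.506). Chac1 had 18.02, 16.95, 20.1 and 22.8 CPM against 13.9, 12.9, 14.2 and 13.2 CPM in Control, with 0.54 ± 0.13, and Hspa5 had a log2 fold change of -0.29 ± 0.08 (edgeR, adjusted p = 0.506 for both). In these libraries, oligodendrocyte lineage markers summed to 133 to 383 CPM in DEX + RU-486, 636 to 1022 CPM in DEX and 393 to 513 CPM in Control, with 3 of 7 called lower against DEX (1.56% of all genes were called in that comparison) and none of the neuron, astrocyte or progenitor markers. Astrocyte markers summed to 36.7 to 38.3 CPM in DEX + RU-486, 40.1 to 56.1 CPM in DEX and 31.1 to 39.3 CPM in Control. Neuron markers summed to 2031 to 2111, 2061 to 2260 and 2019 to 2320 CPM. The part of these markers in the values of the 10 genes was not tested.

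**Figure D3:**
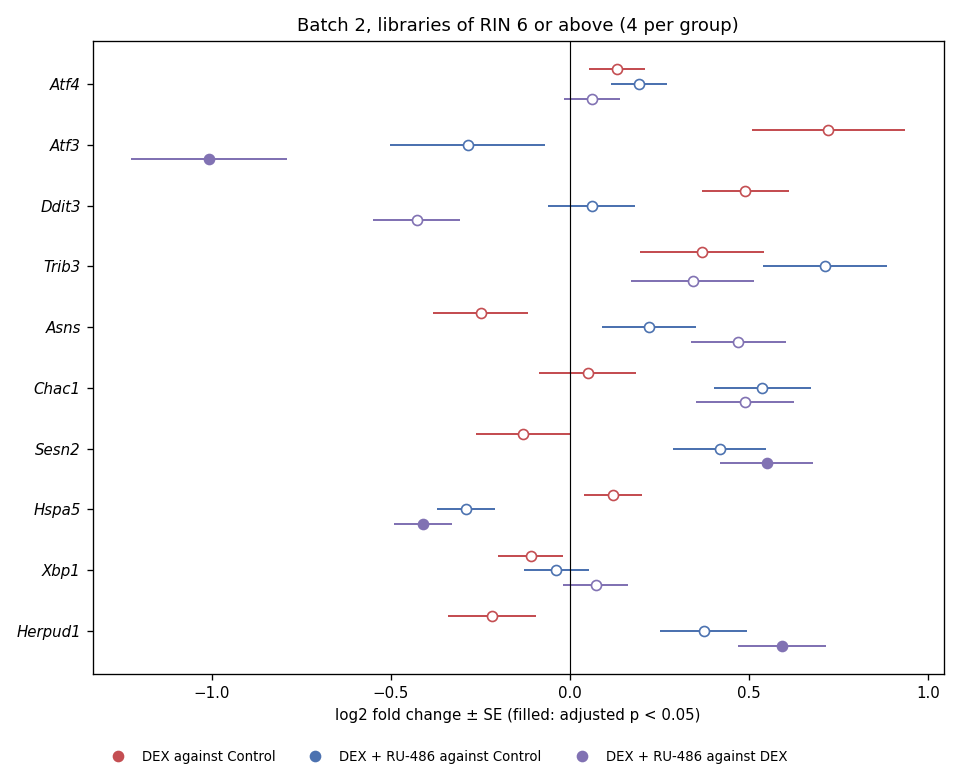
Log2 fold change ± SE of the 10 genes in the 12 batch 2 libraries with a RIN of 7.4 or above, 4 per group, for the 3 comparisons, filled where the adjusted p was under 0.05. The filled values are those of DEX + RU-486 against DEX for Atf3 and Hspa5, to the left of 0, and for Sesn2 and Herpud1, to the right.

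The response to DEX was tested for a difference between batches by an interaction term, coded as batch 2 minus batch 1. With all 36 libraries none of the 10 genes was called for DEX against Control (edgeR; 0.172% of all genes) and none for DEX + RU-486 against Control (0.0835%) or against DEX (0%), with 4, 4 and 0 of the 10 under an unadjusted p of 0.05, all negative, beside 12.9%, 11.9% and 2.29% of all genes. For DEX against Control the difference was -1.16 ± 0.40 for Ddit3, -1.18 ± 0.41 for Trib3, -0.90 ± 0.31 for Herpud1, -1.12 ± 0.43 for Sesn2, -1.42 ± 0.72 for Atf3 and -0.55 ± 0.40 for Chac1. For DEX + RU-486 against Control it was -2.27 ± 0.73 for Atf3, -1.76 ± 0.40 for Ddit3 (edgeR, adjusted p = 0.062) and -1.19 ± 0.41 for Trib3. In the libraries with a RIN of 6 or above, with Control library 1 kept, edgeR called 0 of the 10 for DEX, where 4.25% of all genes were called, with 4 of the 10 and 18.7% of all genes under an unadjusted p of 0.05. It called 1 for DEX + RU-486 (Ddit3), beside 1.91% of all genes. Without Control library 1, Sesn2 (-1.73 ± 0.31), Trib3 (-1.65 ± 0.34) and Herpud1 (-1.19 ± 0.26) were called for DEX against Control, 3 of the 10 beside 0.388% of all genes. For DEX + RU-486 against Control, Ddit3 (-2.09 ± 0.36), Trib3 (-1.67 ± 0.34) and Sesn2 (-1.44 ± 0.31) were called, beside 0.182% of all genes. Both counts rest on leaving out a library chosen by its levels of these genes, and with all libraries none was called.

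When libraries with a RIN under 6 were left out as well as Control library 1, the difference between batches was called for 5 of the 10 for DEX against Control (Ddit3, Trib3, Chac1, Sesn2 and Herpud1, beside 3.6% of all genes) and 6 for DEX + RU-486 against Control (these 5 and Atf3, beside 1.47%), all negative. This setting was added after the data were seen and leaves out a library chosen by its levels of these genes. With Control library 1 kept, the same RIN cut called 0 and 1. Nothing is read from the counts of 5 and 6 against the shares of all genes. Control levels stood apart by batch in some of the 10 genes as well. Of the batch 1 controls other than library 1, all had at most 3.21 CPM of Trib3 and at most 20.1 CPM of Sesn2, while the batch 2 controls with a RIN of 7.4 or above had 4.63 to 4.97 CPM and 25.8 to 29.7 CPM. For Ddit3 the ranges were 7.97 to 17.1 and 21.8 to 26.8 CPM. No control of these batch 1 libraries reached the batch 2 range in the 3 genes, nor in Atf3 or Chac1. Chac1 was barely apart, with at most 12.8 CPM in batch 1 and at least 12.9 CPM in batch 2. Hspa5 went the other way, with 126 to 145 CPM in batch 1 and 103 to 116 CPM in batch 2. Atf4, Asns, Xbp1 and Herpud1 overlapped. Control library 1, left out here for its levels of these genes, lay above the batch 2 range in Trib3, Sesn2, Ddit3, Atf3 and Chac1. With it the ranges of these genes overlap, so their separation rests on that choice. The share of all genes that did not overlap was not counted. These values describe levels across batches and were not tested.

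The other genes of the pathway were taken as lists, without the 10 members. Of 30 tested amino acid response genes and targets of ATF4 or CHOP, 7 were called higher and 0 lower in DEX against Control in batch 1, where 8.99% of all genes were called higher and 19% in either direction, a background that holds for the other lists of this comparison too. The list had a median log2 fold change of 0.37 where the median of all genes was 0.06. Those called included Bbc3, which encodes the cell death protein PUMA (1.36 ± 0.18), Cebpb, a transcription factor (1.53 ± 0.34), Cebpg, a partner of ATF4 (0.49 ± 0.13), and Mthfd1l of mitochondrial folate metabolism (0.92 ± 0.23). Without Control library 1 the count was 16 of 30 (6.82% of all genes were higher) and the median 0.64. In DEX + RU-486 against Control 10 were higher and 0 lower, where 6.92% of all genes were higher, and the median was 0.59 against 0.05 for all genes. Without that library 22 were higher, beside 5.23% of all genes. Control library 1 was left out for its high levels of the 10 genes, which belong to the same pathway. List counts and medians without it follow in part from that choice, here and in the other lists, and nothing is read from them against the shares of all genes.

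Of 35 tested ER chaperone, folding and ER-associated degradation genes, 4 were called higher and 9 lower in DEX against Control in batch 1, with a median log2 fold change of -0.25, and without Control library 1 the counts were 3 and 10 (6.82% of all genes were higher and 16.5% called in either direction) and the median -0.23. Manf, an ER-resident secreted protein (-0.64 ± 0.11), Dnajc10, an ER disulfide reductase (-0.73 ± 0.15), and Canx, the lectin chaperone calnexin (-0.54 ± 0.11), were lower, and Sec24d, a COPII coat subunit, was higher (0.79 ± 0.16). In DEX + RU-486 against Control the list held 1 higher and 12 lower genes around a median log2 fold change of -0.30, where 6.92% of all genes were called higher and 15.4% in either direction. The difference between the 2 lists was not tested.

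Among 17 sensors and translation control genes 3 were called higher and 4 lower after DEX in batch 1 (19% of all genes), with a median of 0.001. Eif2ak3, the gene of PERK, rose by 1.16 ± 0.13 on the log2 scale, and Ppp1r15a, which encodes GADD34 that returns eIF2α to its unphosphorylated state, by 1.54 ± 0.25. Eif2b3, a subunit of the exchange factor that eIF2α phosphorylation blocks (-0.62 ± 0.15), and Eif2ak1, the gene of the heme-regulated kinase (-0.43 ± 0.11), were lower. Ppp1r15a was also the 1 gene of the 17 called after DEX in batch 2 with a RIN of 7.4 or above (0.69, edgeR, adjusted p = 0.0241), where 0.565% of all genes were called.

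Of 12 tRNA synthetase genes, Cars (0.58 ± 0.16) and Sars (0.48 ± 0.15) were called higher and Wars (-0.53 ± 0.12) lower after DEX in batch 1, with a median of 0.22. Of 11 heat shock genes 3 were higher, among them Hspa1a (1.18 ± 0.31) and Hspa1b (1.69 ± 0.43), near-identical copies whose values are uncertain because shared reads may have been discarded or split, and 4 were lower, among them Hspa8 (-0.54 ± 0.10) and Hsph1 (-0.72 ± 0.13). Of 8 tested NRF2 targets Gclm was called, lower (-0.60 ± 0.12), a share below the 19% of all genes. Of 11 p53 targets, Bbc3, Phlda3, Cdkn1a and Eda2r were higher (8.99% of all genes) and none lower, and Eda2r was not called without Control library 1 (edgeR, adjusted p = 0.0579). Bbc3 is also counted in the list of amino acid response genes and targets of ATF4 or CHOP.

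Of 12 genes that glucocorticoid receptor agonists are known to raise, 4 were called higher after DEX in batch 1 (Dusp1, Per1, Tsc22d3 and Ddit4) and 0 lower (median 0.68), while DEX + RU-486 gave 3 higher and 0 lower (median 0.48), beside 6.92% of all genes higher. Ddit4 is also a target of ATF4 and is counted in both lists. In batch 2 with a RIN of 7.4 or above none of the 12 was called after DEX and the median was 0.11. There the medians of the other lists were -0.02 for the amino acid response genes, -0.09 for the ER chaperones, 0.02 for the sensors and -0.03 for the tRNA synthetases, and beside Ppp1r15a only Pdia6 of the ER chaperones was called, lower (0.565% of all genes were called).

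After DEX + RU-486 in the same batch 2 libraries, 28 of the 30 amino acid response genes had a positive fold change against Control with a median of 0.24, and 27 of 30 against DEX with a median of 0.31, where 54.2% and 51.4% of all genes were positive and their medians were 0.03 and 0.01. Both counts use the same DEX + RU-486 libraries, and genes of the same pathway can vary together in them. The counts of positive fold changes therefore cannot be read against the shares of all genes. None of the 30 was called against Control. Against DEX, Stc2, the gene of a secreted glycoprotein that ATF4 induces, was the 1 gene of the 30 called, higher, beside 1.56% of all genes, so the count is near the background. Stc2 and Pdia6 are named after their values were seen.

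**Figure D4:**
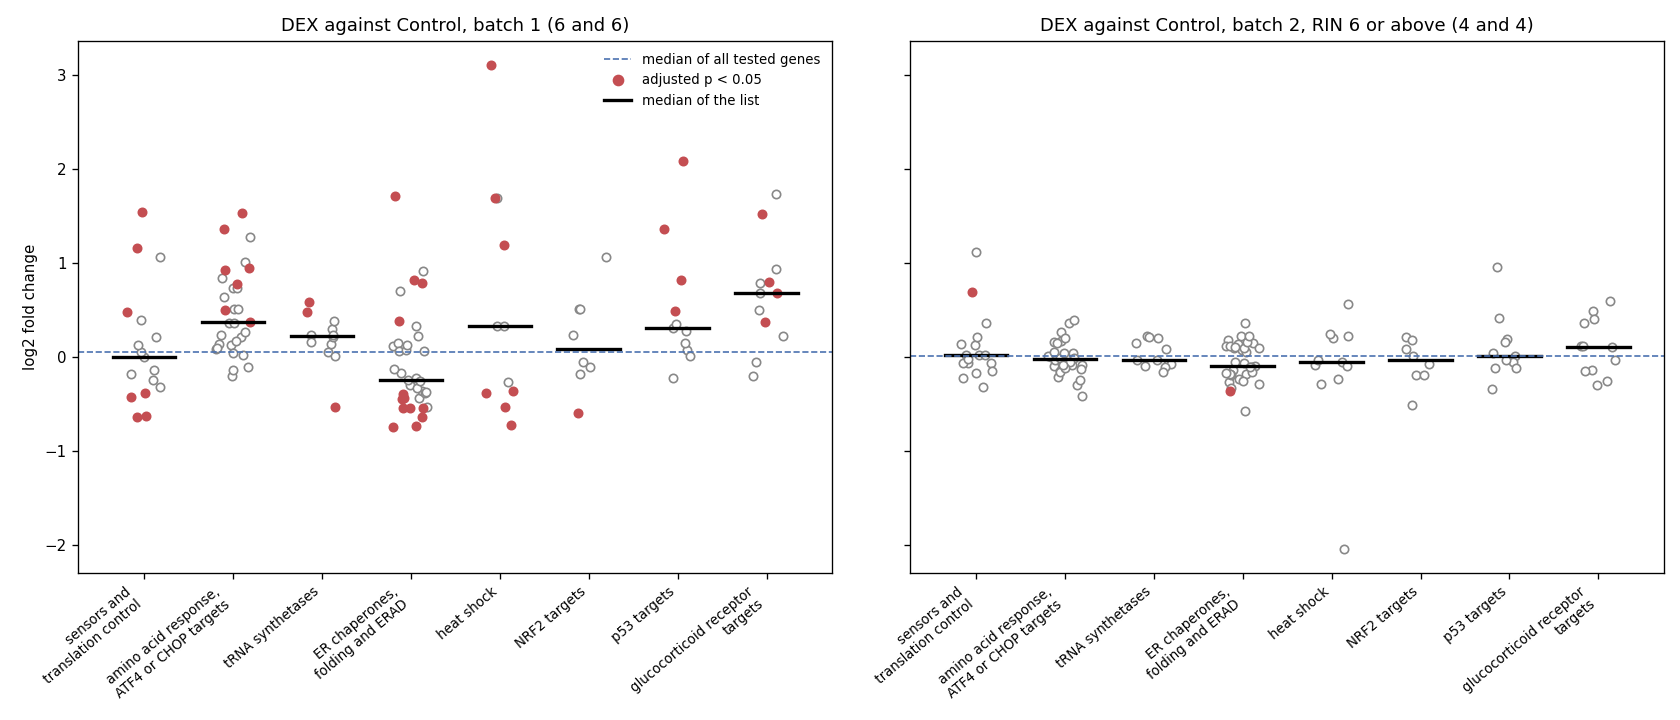
Log2 fold changes of single genes in the 8 lists for DEX against Control, in batch 1 (left, 6 and 6 libraries) and in batch 2 libraries with a RIN of 7.4 or above (right, 4 and 4), red where the adjusted p was under 0.05, with each list's median as a bar and the median of all genes as a dashed line. In batch 1 the amino acid response list centres on 0.37 and the ER chaperone list on -0.25, and in batch 2 on -0.02 and -0.09.

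Across the 28 libraries with a RIN of 6 or above, with the mean of each batch and treatment removed, the 7 genes of the ATF4 arm (Atf4, Atf3, Ddit3, Trib3, Asns, Chac1 and Sesn2) were each compared with the mean of the other 6. Pearson r ran from 0.71 for Atf3 to 0.92 for Sesn2, and without Control library 1 from 0.47 for Asns to 0.82 for Ddit3. These values describe libraries that share batches and differ in depth. The 5 genes outside the 10 most like the mean of all 7 were Mthfd2 (r = 0.95), Bcat1 (0.94), Arl14ep (0.92), Clic4 (0.92) and Tars (0.92), and without Control library 1 Mthfd2 (0.89), Fos (0.89), Bcat1 (0.86), Ccn1 (0.85) and Ppp1r15a (0.84). Mthfd2 encodes a mitochondrial folate enzyme and Bcat1 a transaminase of branched-chain amino acids.

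Hspa5, Xbp1 and Herpud1, each compared with the mean of the other 2, had r of -0.33, 0.73 and 0.24, and without Control library 1 -0.32, 0.70 and 0.12. The genes most like the mean of the 3 were Mthfd1l (0.81), Arid5a (0.80), Psph (0.80), Mthfd2 (0.79) and Eif4ebp1 (0.79), and none of these 5 was among the first 5 without Control library 1, where Fibin (0.69), Fhl2 (0.68), Schip1 (0.67), Gm25395 (0.66) and Ppp1r14c (0.64) led.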

How the data were processed

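The deposited table holds raw read counts per gene for 36 RNAseq libraries, which the authors aligned with HISAT2 2.1.0 and counted with Subread 1.5.0-p2 on GRCm38, per the labels. The labels name poly(A) selection and the paper a total RNA library. The paper's pipeline, said to have been used for these libraries, includes mapping to a composite genome with no mismatches and with reads of several loci discarded. Whether the deposited counts came from that step or from the standard alignment, the annotation release and the strand setting were not given in the sources used here. Groups, batches and RIN came from the labels, doses and duration from the paper. Symbols and coordinates came from GENCODE M21, promoters from RefSeq. Genes with a mean count above 5 (20355 of 55487) were tested with edgeR 4.0.16 (R 4.3.3; TMM, quasi-likelihood, Benjamini-Hochberg over all genes) in both batches with batch as covariate, in each batch alone, and for the batch-by-treatment interaction. SE is the fold change divided by the square root of F. DESeq2 1.42.0, other scalings, filters, RIN settings and leaving out libraries were alternatives. CPM use a prior count of 2 only on the log scale. Named list genes were the up to 4 with the smallest adjusted p under 0.05 in DEX against Control in batch 1, in batch 2 or in both (none passed in the last 2). Members and lists were chosen with earlier results of these data known. 5 table entries that are not mouse genes were left out. Intervals cover counting and library spread only.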

Additional observations from a re-analysis of the deposited data

Results flagged for a closer look

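In each treatment of each batch the gap between the highest or lowest library and its neighbour was divided, on the log2 CPM scale, by the range of the 6 libraries and compared with Dixon's 95% critical value for 6 samples. Of 60 groups tested 9 were above it. Chance gives about 1 in 20 for independent groups, but these are 10 genes that vary together in the same libraries, so the count cannot be read against that share. All 9 were in batch 1 and came from 5 libraries.

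Control library 1 was the highest of its 6 libraries in 3 of these groups, with a ratio of 0.749 for Asns (156 CPM), 0.680 for Herpud1 (80.0 CPM) and 0.641 for Sesn2 (67.2 CPM). Its RIN was 7.8, the lowest of the batch 1 controls. DEX + RU-486 library 13, with a RIN of 6.6, was highest for Sesn2 (0.736, 88.2 CPM) and Herpud1 (0.720, 91.8 CPM). DEX library 7, with a RIN of 6.2, was highest for Atf3 (0.649, 17.7 CPM).

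The libraries that stood lowest were those with a RIN under 6. DEX library 12, with a RIN of 3.9, was lowest for Chac1 (0.751, 12.96 CPM), and DEX + RU-486 library 18, with a RIN of 5.6, was lowest for Chac1 (0.717, 14.2 CPM) and Atf4 (0.668, 171 CPM). The part of RNA integrity in these values was not tested.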

How the results depend on the processing

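With all libraries of batch 1, 4 of the 10 genes were called for DEX and 5 for DEX + RU-486 against Control (19% and 15.4% of all genes). With 1 library left out at a time, the number called ranged from 3 to 7 and from 4 to 7. The 7 was reached without Control library 1 in both (16.5% and 13.1% of all genes). Over both batches the number ranged from 0 to 3 (3 without Control library 20, with 7.94% of all genes called, and 2 without 19, with 1.59%) and from 0 to 2 (2 without Control library 20, with 2.06%). Without Control library 1 the difference between batches was called for 3 genes in each comparison with Control (0.388% of all genes for DEX and 0.182% for DEX + RU-486). DESeq2 called 2 and 1 over both batches (3.01% and 1.04% of the genes to which it gave an adjusted p). RIN as a covariate gave 1 for DEX (2.24% of all genes). In the libraries with a RIN of 6 or above the counts over both batches were 3 and 5 (19.7% and 8.86% of all genes). In the same RIN setting the count of DEX + RU-486 against DEX in batch 2 was 4 (1.56%). That of the difference between batches for DEX + RU-486 against Control was 1 (1.91%). Leaving out Control library 1 as well, a setting added after the data were seen, gave 7 for DEX against Control in batch 1 (17.7% of all genes), 7 and 6 over both batches (16.6% and 6.7%), and 5 and 6 for the difference between batches (3.6% and 1.47%). The cause of these shifts was not tested.

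The log2 fold change of Asns in batch 1 changed sign: for DEX + RU-486 against Control it was 0.025 with DESeq2, 0.16 with a RIN of 6 or above and 0.43 when Control library 1 was left out too, and -0.15 to 0.25 with 1 library left out. For DEX it was 0.053 and 0.32 in the same RIN settings, and -0.28 to 0.15. Xbp1 (DEX, batch 1) ranged from -0.0262 to 0.0777 and Trib3 (DEX, batch 2) from -0.023 to 0.22 with 1 library left out. Sesn2 for DEX + RU-486 and Herpud1 for DEX in batch 1 lay near the threshold and lost their call in 15 and 7 of the 18 fits with 1 library left out. No paired analysis was possible because the labels give each library a number of its own. With 17 to 234 counts per library, depth limits Atf3 most.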
